A study of Macaca fascicularis with 32 samples.

Results

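Indirect pathway spiny projection neurons are the GABA-releasing output neurons of the striatum that carry the dopamine receptor DRD2 and the adenosine receptor ADORA2A. They were taken as the striatal barcodes with 2000 or more unique molecular identifiers (UMIs, the counted transcripts of a nucleus), 10 or more UMIs of PDE10A, and 2 or more UMIs of DRD2 and ADORA2A together. Members were thus chosen by measured counts of these 3 genes and by depth. The thresholds held for 5884 of 37681 barcodes in 4 libraries. There were 1890 in the control putamen (PUT CT), 1373 in the model putamen (PUT PD), 1230 in the control caudate nucleus (CN CT) and 1391 in the model caudate nucleus (CN PD). Because DRD2, ADORA2A and PDE10A chose the nuclei, their levels are given as a description only.

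Spiny projection neurons make up most of the striatum and integrate cortical glutamate with midbrain dopamine. The indirect type projects to the external pallidum, expresses the opioid precursor PENK, and responds to dopamine through DRD2, which lowers cyclic AMP, and to adenosine through ADORA2A, which raises it. The direct type projects to the output nuclei of the basal ganglia and expresses the dopamine receptor DRD1 and the substance P precursor TAC1. In Parkinson's disease the loss of dopamine is held to relieve the indirect type of its DRD2 brake, and a rise in PENK is a textbook finding in dopamine-depleted striatum.

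Nuclei came from cynomolgus macaques and were counted on a droplet platform that reads the 3′ end of transcripts. The PD group was a Parkinson's disease model in which an adeno-associated virus carrying α-synuclein was combined with poly(ADP-ribose), the chain that PARP enzymes build on proteins, and CT was its control. What the CT animals received, the site of injection, the promoter of the virus, the time after treatment and the animals' ages are not given in the labels used here. The labels list 8 samples each for PUT CT and CN CT and 4 each for PUT PD and CN PD, and they do not say which samples came from separate animals. The counts form 1 matrix per region and group with no map from barcodes to samples, so each was taken as 1 library. No difference between PD and CT could therefore be tested, and the treatment, the animals and the library cannot be told apart.

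The 4 libraries held 23250580 to 36723856 UMIs, of which the indirect nuclei contributed 11500969 in PUT CT and 7411760 in PUT PD, and 6706673 in CN CT and 9821234 in CN PD. Their median depth was 5395.5, 5023, 5050 and 6447 UMIs and their median number of detected genes 2496, 2324, 2395 and 2651, so CN PD was the deepest. Mitochondrial UMIs made up 0.0102% to 0.0161% of their counts. Between 12 and 27 of the nuclei of a library carried a barcode sequence also found in another library. A level in CPM is a gene's summed count per 1000000 UMIs of the indirect nuclei of that library. Where 4 levels are given in a row, they are those of the CT and then the PD library of the putamen, followed by CT and PD of the caudate nucleus. Ratios and log2 ratios are PD over CT. Intervals are 95% intervals for counting error only and do not cover the spread between animals. A gene was called higher or lower when the PD to CT ratio was 1.5-fold or more, which is a size and not a test.

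The label of an indirect neuron was checked against genes that the thresholds did not use. Of the 11 indirect markers listed for this purpose 9 were in the annotation, among them DRD2 and ADORA2A, which leaves 7 that the thresholds did not use. PENK was 90.3, 60.3, 100.5 and 98.9 CPM. In a comparison set of direct type nuclei, which had no DRD2 or ADORA2A UMI and 2 or more UMIs of TAC1, EBF1, RELN and ISL1 together (6189 nuclei), PENK was 37.2, 17.4, 42.7 and 28.1 CPM. DRD1 itself could not serve to define that set, because it was barely counted: the indirect nuclei held 9 DRD1 UMIs in total and the direct set 36, 16, 38 and 31. The PENK level in the indirect nuclei was above that in the direct set in each library.

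PENK was also counted in barcodes that should lack it, and whether free RNA was the source was not tested. At 1000 UMIs per nucleus, PENK was seen in 8.73% of indirect nuclei of PUT CT, 6.12% of PUT PD, 10.4% of CN CT and 8.70% of CN PD. In barcodes of the same libraries with oligodendrocyte genes and at most 2 PDE10A UMIs, which should lack PENK, the shares were 10.2%, 3.09%, 10.7% and 7.63%, and in the direct set they were 3.66%, 1.56%, 3.75% and 2.73%. Without thinning the shares were 37.7%, 26.1%, 38.5% and 44.9% in indirect nuclei, at median depths of 5023 to 6447 UMIs, and 14.8%, 4.63%, 14.8% and 11.1% in the oligodendrocyte barcodes, at median depths of 1345 to 1471 UMIs. The thinned share in indirect nuclei was at or below that of oligodendrocytes in both CT libraries, so PENK seen in a single nucleus was not read as expression. TTC12, by contrast, was seen in 8.47%, 8.08%, 7.72% and 8.63% of thinned indirect nuclei and in 0.33%, 0.35%, 0.72% and 0.23% of the direct set, with 4.55%, 2.97%, 1.68% and 3.05% in oligodendrocytes. TTC12 lies close to DRD2, as given below, and the direct set was chosen to lack DRD2 UMIs. Whether DRD2 reads were counted for TTC12 was not tested. PTPRM was seen in 51.7%, 54.5%, 41.6% and 46.0% of thinned indirect nuclei and in 26.9%, 22.6%, 7.11% and 7.21% of the direct set. SIX3 was at 5.08%, 4.44%, 2.68% and 2.95% against 3.79%, 4.08%, 3.20% and 2.27%. Its shares were thus close in both sets, and lower in the indirect nuclei of CN CT. RELN, which helped to define the direct set, was seen in 35.8%, 38.3%, 41.4% and 40.9% of that set after thinning. In thinned oligodendrocyte barcodes RELN was seen in 37.6%, 40.8%, 37.9% and 44.5%, so RELN alone did not set the direct set apart from them. EBF1 was at 19.2%, 16.6%, 13.9% and 9.30% against 1.17%, 0.71%, 0.34% and 0.76%. Whether the direct set held nuclei of other types was not tested.

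Several other genes separated the indirect nuclei from the direct set in all 4 libraries. Of 9157 genes compared, 32 (0.349%) were 1.5-fold or more higher in the indirect nuclei in every library and 22 (0.24%) were lower. DRD2 and ADORA2A made the contrast, as did TAC1, EBF1, RELN and ISL1, which defined the direct set. None of these was left out of the counts, so the counts are descriptions. The kainate receptor subunit GRIK3 was 42.7, 64.4, 26.1 and 33.5 CPM in the indirect nuclei and between 0.852 and 1.42 CPM in the direct set. OPRD1, the delta opioid receptor, which enkephalin activates, was 48.4, 50.7, 40.3 and 38.2 CPM against 2.96 to 6.26 CPM. NOS1, the neuronal nitric oxide synthase best known from striatal interneurons, was 151, 109, 61.4 and 45.1 CPM against 8.23 to 34.7 CPM, and the transcription factor SP9, which is needed for the indirect type to form, was 16.6, 12.7, 15.1 and 10.1 CPM against 1.16 to 2.63 CPM. For each of these genes the lowest indirect level lay above the highest level in the direct set. Of the 4 interneuron markers measured in the putamen, NOS1 among them, 3 lay below 0 and PTHLH above, at 6.87, 7.69, 3.43 and 2.65 CPM; both measured in the caudate nucleus lay below 0. NPY was 22.9, 9.98, 17.9 and 6.92 CPM and SST 10.3, 2.43, 8.05 and 1.63 CPM. The part of free interneuron RNA in the NOS1 levels was not tested.

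Genes lying beside the genes that chose the nuclei were among the highest. ANKK1 was 32.8, 17.8, 36.7 and 17.6 CPM, TTC12 was 88.2, 78.7, 81.3 and 80.5 CPM, and UPB1 was 15.6, 13.4, 16.6 and 15.3 CPM. In the RefSeq annotation of the cynomolgus assembly T2T-MFA8v1.1, ANKK1 lies next to DRD2 and TTC12 next to ANKK1, with 0 protein-coding genes between each pair, and UPB1 lies next to ADORA2A. FIG4, a lipid phosphatase, and AK9, an adenylate kinase, which are also neighbours, were at 257, 285, 281 and 324 CPM and 67.6, 94.4, 87.8 and 119 CPM, against 40.2 to 67.5 and 11.6 to 24.0 CPM in the direct set. Whether reads of one neighbour were counted for the other was not tested.

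The genes lower in the indirect nuclei were led by TOX, CNTNAP4, ERBB4, DSCAM and FOXP2. ERBB4, a neuregulin receptor, was 682, 409, 580.3 and 489 CPM in the indirect nuclei and 2520.1, 2119.9, 1646 and 1439 CPM in the direct set. FOXP2, a transcription factor of the forkhead family, was 23.9, 25.1, 66.7 and 45.2 CPM against 102, 70.9, 242 and 215 CPM. Among kainate receptor subunits GRIK3 was higher and GRIK2 lower in the indirect nuclei. GRIK2 was 2056, 1937, 1709 and 1609.9 CPM against 3664, 3522, 2902 and 2639 CPM.

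**Figure D1:**
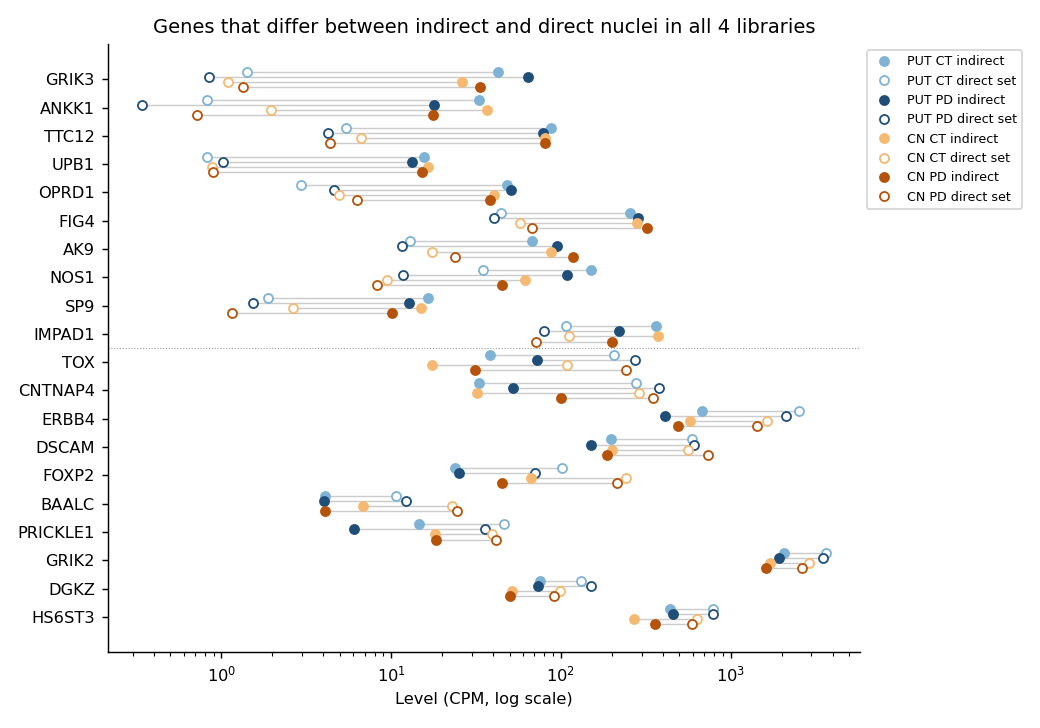
Levels (CPM, log axis) of the 10 genes per direction that separate indirect nuclei (filled points) from direct set nuclei (open points) most in their least separated library, with 1 point per library and no error bars. GRIK3, ANKK1 and TTC12 are at the top; every filled point lies right of its open partner above the dotted line and left of it below.

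The thresholds do not cut the population at a gap. Members with exactly 2 DRD2 and ADORA2A UMIs numbered 466, 351, 538 and 438 in the 4 libraries, and barcodes just outside, with 1 such UMI, numbered 636, 414, 733 and 579. In PUT CT, TTC12, which lies close to DRD2, was 87.4 CPM in members with 2 UMIs, 63.4 CPM in barcodes with 1 UMI and 12.4 CPM in barcodes with none. GRIK3 was 33.4, 27.4 and 4.15 CPM in the same order, so the barcodes just outside resembled members more than they resembled the barcodes with none. Among the members, 279 (14.8%), 116 (8.45%), 141 (11.5%) and 190 (13.7%) carried 2 or more UMIs of the 4 direct genes, and 189 (10.0%), 92 (6.70%), 26 (2.11%) and 55 (3.95%) carried 10 or more oligodendrocyte UMIs. Both shares were lower in PUT PD than in PUT CT.

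The first comparison between PD and CT asked how many indirect nuclei each library held. In the putamen they were 35.4% (34.2 to 36.7) of barcodes with 2000 or more UMIs in CT and 34.8% (33.3 to 36.3) in PD, with exact Clopper-Pearson intervals. The ratio was 0.982 (0.915 to 1.05). In the caudate nucleus they were 20.2% (19.2 to 21.2) in CT and 25.1% (24.0 to 26.3) in PD, a ratio of 1.25 (1.15 to 1.35). Of the indirect and direct nuclei together, the indirect type was 55.7% and 54.4% in PUT CT and PD and 40.4% and 44.7% in CN CT and PD.

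The excess in the caudate nucleus was smaller among deeper barcodes. Over barcodes with 5000 or more UMIs, before any thinning, members numbered 1084 of 2382 in PUT CT, 697 of 1495 in PUT PD, 628 of 1924 in CN CT and 1063 of 3071 in CN PD, and the caudate ratio was 1.06. When these barcodes were thinned to 5000 UMIs each and the thresholds applied again, the indirect share was 39.3% (936 of 2382) in PUT CT and 41.5% (620 of 1495) in PUT PD. It was 26.4% (507 of 1924) in CN CT and 26.7% (819 of 3071) in CN PD, a ratio of 1.01 (0.905 to 1.13). The minimum of 5000 UMIs left out 2951, 2452, 4178 and 2460 shallower barcodes. At equal depth no difference in the share was detectable in the caudate nucleus.

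**Figure D2:**
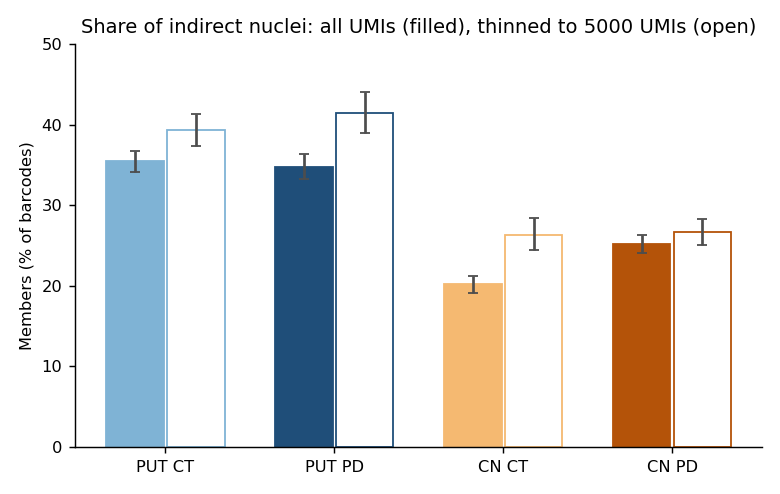
Indirect nuclei as a percentage of barcodes in each library, with all UMIs over barcodes of 2000 or more UMIs (filled bars) and over barcodes of 5000 or more UMIs thinned to 5000 (open bars); error bars are 95% Clopper-Pearson intervals for counting error. The filled CN bars lie at 20.2% in CT and 25.1% in PD and the open ones at 26.4% and 26.7%; the open bars differ from the filled ones both in the barcodes kept and in the thinning.

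In the putamen 354 of 10476 measured genes (3.38%) were 1.5-fold or more higher in PD and 826 (7.88%) lower. In the caudate nucleus 269 of 9947 (2.7%) were higher and 1078 (10.8%) lower. The counts given below for lists of genes are to be read beside these shares. The median log2 ratio of all measured genes was -0.06 in the putamen and -0.13 in the caudate nucleus, and 59.5% and 67.6% of genes lay below 0. With the caudate ratios centred on their median, 406 genes were higher and 644 lower. Both regions shared 126 higher genes (1.28% of the 9822 measured in both) and 399 lower genes (4.06%), and 5 genes (0.0509%) were 1.5-fold apart in opposite directions. The shared higher genes were 35.6% of those higher in the putamen and 46.8% of those higher in the caudate nucleus. The shared lower genes were 48.3% and 37.0%. The direct set gave similar totals, with 3.33% of genes higher and 7.1% lower in the putamen and 3.19% and 10.1% in the caudate nucleus.

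Of the genes that differed most between PD and CT, 8 per direction were ranked over both regions, so a difference in each region was part of the choice. HTR2C, among the 5 lowest in the putamen, differed little in the caudate nucleus, as given below. ABO, the glycosyltransferase of the ABO blood group, was 1.39 CPM in PUT CT and 63.7 CPM in PUT PD (ratio 45.8, 27.9 to 80.7). In the caudate nucleus it had 0 UMIs in CT and 490 UMIs (49.9 CPM) in PD, which is 111.5-fold higher against a floor of 3 counts in the CT library. The exact interval for the ratio begins at 90.4. NKD2, an inhibitor of Wnt signalling, was 1.65, 37.1, 1.49 and 36.7 CPM. SP100, a component of nuclear bodies that is induced by interferon, was 5.91, 76.8, 11.5 and 85.5 CPM (ratios 13, 10.1 to 17 in the putamen and 7.45, 5.89 to 9.53 in the caudate nucleus). In these 3 genes both PD libraries lay above both CT libraries. EFHB, ACBD7, ATP6AP1L, SLC25A21 and C12orf42 completed the 8 highest over both regions, at log2 ratios from 2.04 to 4.41 in the putamen and from 2.47 to 3.15 in the caudate nucleus. DSP, the desmosome protein desmoplakin, was among the 5 highest in the caudate nucleus, at 0.596 CPM in CT and 9.88 CPM in PD. In the putamen it had 0 UMIs in CT and 16 UMIs in PD, 8.28-fold higher against the floor, with an exact interval that begins at 5.98. None of the 18 genes ranked highest or lowest came inside the fold under an alternative, though ratios moved: over the alternatives the log2 ratio of ABO in the putamen ran from 4.88 to 6.63, that of ACBD7 in the caudate nucleus from 2.06 to 4.96 and that of HTR2C in the putamen from -4.80 to -3.11.

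The 8 lowest genes over both regions were EVC, CDH23, WDR88, KBTBD12, PIWIL1, EPB41L4A, SPATA21 and C4H6orf201. CDH23, a cadherin known from the hair cells of the inner ear, was 78.9, 10.9, 63.4 and 7.43 CPM. EPB41L4A, a membrane skeleton protein, was 119, 30.5, 137 and 22.6 CPM. EVC, a ciliary protein of hedgehog signalling, was 21.2, 1.62, 20.9 and 2.14 CPM. All 16 genes were also 1.5-fold or more different in the same direction in the direct set, as were the 10 named in each region alone. For ABO, for instance, the direct set held 0.71, 69.5, 1.2 and 51.7 CPM. Across 9720 genes in the putamen the log2 ratios of the indirect nuclei and the direct set had a Pearson correlation of 0.815 and a Spearman correlation of 0.727, and across 9915 genes in the caudate nucleus 0.832 and 0.759. Across 9822 genes the putamen and the caudate nucleus had 0.689 and 0.581. These correlations are across genes, which are not independent, and the 2 types share their libraries and their free RNA.

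**Figure D3:**
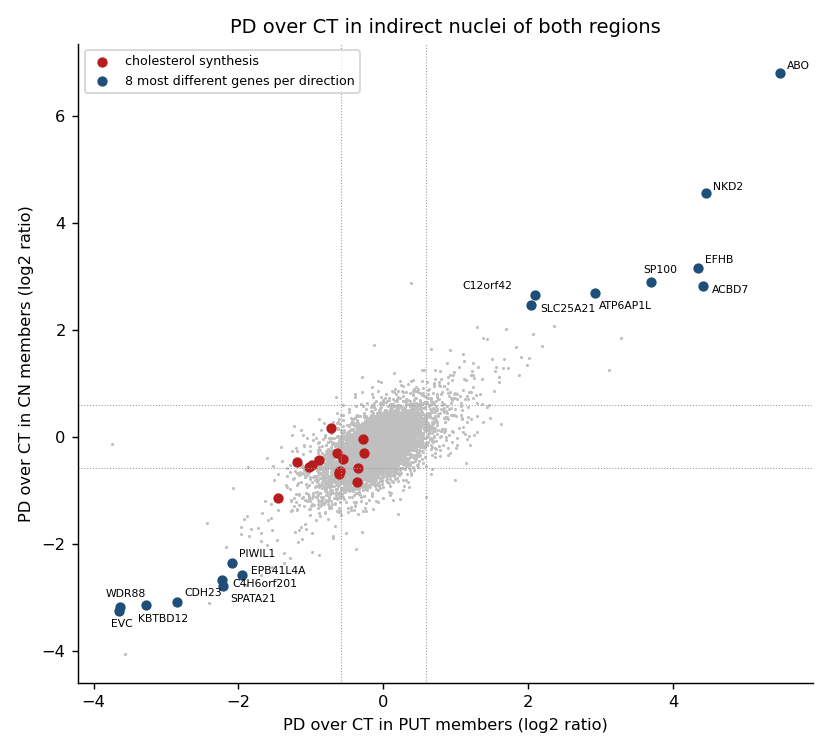
PD to CT log2 ratios of genes in indirect nuclei of the putamen (x axis) and the caudate nucleus (y axis), 1 point per gene with 100 or more UMIs in both regions; dotted lines mark 1.5-fold. The 16 named genes (blue) lie at the 2 ends of the cloud, the cholesterol synthesis genes (red) below 0 in both regions except PMVK in the caudate nucleus, and ABO is drawn at its lower bound in the caudate nucleus.

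Of the 9 indirect markers, 1 was past 1.5-fold between PD and CT in the putamen and none in the caudate nucleus. DRD2 was 585, 673, 503 and 488 CPM and ADORA2A was 90.0, 74.9, 67.5 and 51.6 CPM; both helped to choose the nuclei. PENK was lower in PUT PD than in PUT CT (log2 -0.58, ratio 0.668, 0.596 to 0.747), just inside the fold, and close in the 2 caudate libraries (log2 -0.02, ratio 0.984, 0.891 to 1.09). In CPM, no library of the model had PENK above its control. The caudate log2 ratio of PENK lay on both sides of 0 over the alternatives. It ran from -0.10 with 4 or more DRD2 and ADORA2A UMIs to 0.14 after thinning to 2000 UMIs. With TMM scaling it was 0.10 and with median centring 0.11. In the direct set PENK had log2 ratios of -1.09 in the putamen and -0.60 in the caudate nucleus. The PENK seen in oligodendrocyte barcodes was lower in PUT PD too, as given above. The part of free RNA in the difference was not tested. With every nucleus thinned to 2000 UMIs before summing, the log2 ratio of PENK was -0.86 in the putamen and 0.14 in the caudate nucleus.

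GRIK3 was the 1 indirect marker past the fold, at a ratio of 1.51, 1.33 to 1.71 in the putamen, with 1.28, 1.07 to 1.55 in the caudate nucleus; its putamen ratio came inside the fold under 6 of 14 alternatives, at a log2 ratio of 0.45 at the least. SP9 was lower in both PD libraries (log2 -0.39 and -0.58). TTC12 (log2 -0.16 and -0.01), SIX3 (-0.21 and -0.17), UPB1 (-0.22 and -0.12) and PTPRM (0.04 and 0.21) differed less. The list's median was -0.21 in the putamen and -0.04 in the caudate nucleus.

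Direct markers inside the indirect nuclei were lower in PUT PD. TAC1 was 49.9, 26.8, 33.8 and 23.3 CPM (log2 -0.89 and -0.54). RELN, a secreted glycoprotein, had log2 ratios of -0.61 and 0.34, the transcription factor EBF1 -0.49 and -0.67, EYA1 -0.46 and -0.06, and SFXN1 -0.20 and -0.16. All 5 measured direct markers lay below 0 in the putamen, 2 of them past the fold. Over all genes 59.5% lay below 0 in the putamen and 7.88% were lower past the fold. The direction of EBF1 there turned in one alternative. Without members that had 2 or more UMIs of TAC1, EBF1, RELN and ISL1, a filter that uses EBF1 itself, its log2 ratio was 1.34 in the putamen and -0.08 in the caudate nucleus. After thinning to 2000 UMIs EYA1 was at 0.65 in the caudate nucleus, and RELN in the putamen came as near to 0 as -0.43 over the alternatives. TAC1 was also lower in the oligodendrocytes of PUT PD, where 4.75% of barcodes thinned to 1000 UMIs held it against 10.3% in PUT CT, and the part of free RNA in the difference was not tested. Markers common to both types moved little. Of 17 measured, none was past the fold in the putamen (median 0.08) and 1, RASD2, a small G protein enriched in striatum, was higher in the caudate nucleus at 28.4, 31.8, 15.1 and 28 CPM. PPP1R1B, which encodes DARPP-32, was 274, 250.0, 212 and 198 CPM.

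Among 12 measured genes of opioid peptides, their receptors and peptide processing, none was past the fold in the putamen and 1 was higher in the caudate nucleus. PCSK1, a convertase that cuts prohormones, was 6.52, 9.44, 12.5 and 29.7 CPM, so CN PD stood above the other libraries (ratio 2.37, 1.86 to 3.06). The convertase PCSK2 was 655, 561, 806 and 818 CPM and the carboxypeptidase CPE 157, 146, 193 and 141 CPM. The opioid receptors OPRD1 (log2 0.07 in the putamen and -0.08 in the caudate nucleus), OPRM1 (0.08 and 0.24) and OPRK1 (-0.40 and 0.35) stayed within the fold. So did the granins and processing genes PAM (-0.23 and -0.14), SCG3 (-0.40 and -0.22), SCG5 (-0.12 and 0.30), CHGB (0.05 and 0.44) and PCSK1N (-0.12 and -0.12). The list's median was -0.12 and -0.00.

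Downstream of the receptors, the cyclic AMP and DARPP-32 list had a median of -0.02 in both regions, with 0 of 37 genes higher and 3 lower in the putamen and 1 of 38 higher and 2 lower in the caudate nucleus. RGS4, which shortens signalling through inhibitory G proteins, was lower in both regions at 30.1, 14.3, 24.8 and 14.9 CPM. PDE4D, a phosphodiesterase that degrades cyclic AMP, was 327, 179, 686 and 581 CPM, a ratio of 0.547, 0.513 to 0.582 in the putamen, while its caudate levels differed less. PDE1A was the other putamen gene past the fold (log2 -0.59), a call lost under 10 of 14 alternatives. PPP1CA, the catalytic subunit of protein phosphatase 1, was 21.3, 15, 26.2 and 13.3 CPM, past the fold in the caudate nucleus. GNAL, the stimulatory G protein to which ADORA2A couples, was 897, 1046, 853 and 979 CPM, and ADCY5, the striatal adenylyl cyclase, 922, 983, 636 and 731 CPM; both were within the fold. RGS4, PDE4D and PPP1CA had log2 ratios of -0.81, -1.07 and -0.25 in the direct set of the putamen and -0.70, 0.06 and -1.14 in that of the caudate nucleus.

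The glutamate receptor and postsynaptic list was level on the whole (medians 0.02 and -0.00), with 3 of 38 genes higher and 1 lower in the putamen and 1 higher and 1 lower in the caudate nucleus. HOMER1, a scaffold that links group 1 metabotropic receptors to calcium stores and whose short form is induced by activity, was 383, 580.4, 371 and 584 CPM. Both PD libraries lay above both CT libraries, at ratios of 1.52, 1.45 to 1.58 and 1.57, 1.5 to 1.65, and the direct set had log2 ratios of 0.88 and 0.46. The counts do not separate its long and short forms. GRIK4, a high-affinity kainate receptor subunit, was lower in both regions at 41.9, 21.3, 27.7 and 12.9 CPM. GRIK1, a low-affinity subunit, was 69, 111, 26.2 and 38.4 CPM, higher in PD in the putamen at a ratio of 1.61, 1.46 to 1.78, whereas the direct set of the putamen had a log2 ratio of -0.79. Over the alternatives the putamen log2 ratio of GRIK1 ran from 0.27, with 4 or more DRD2 and ADORA2A UMIs required, to 1.34, without members with direct genes. HOMER1 came just inside the fold under some of them, at 0.57 in the putamen and 0.57 in the caudate nucleus. Of the other immediate early genes EGR3 was 10.9, 6.75, 11.6 and 9.27 CPM (log2 -0.68 in the putamen, -0.53 at the nearest to 0), and most members of that list had fewer than 100 UMIs, with 6 measured in the putamen and 4 in the caudate nucleus.

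Channel lists also centred on 0. Potassium channels had medians of 0.04 and 0.05 (2 of 31 higher and 0 lower in the putamen, 2 higher and 3 lower in the caudate nucleus). KCNH5, a voltage-gated channel of the ether-a-go-go family, was higher in both regions at 39.1, 65, 15.1 and 24 CPM, though over the alternatives its log2 ratio came inside the fold, to 0.58 in the putamen and 0.45 in the caudate nucleus. KCNH1 of the same family was 659, 459, 532 and 307 CPM, lower in the caudate nucleus at a ratio of 0.577, 0.549 to 0.605. Calcium and sodium channels had medians of 0.04 in both regions. CACNG5, an AMPA receptor auxiliary subunit, was 10.3, 24.3, 4.17 and 9.47 CPM, the 1 channel gene of that list higher in both regions. Of the endocannabinoid genes FAAH, which degrades anandamide, was 69.6, 91.2, 51.3 and 77.8 CPM, and past the fold in the caudate nucleus, with 0.39 at the nearest to 0 over the alternatives. PLCB4, a phospholipase C, was 43.2, 26.2, 29.8 and 17.8 CPM and lower in both regions (-0.45 in the caudate nucleus after thinning). The receptor CNR1 was 196, 195, 78.4 and 78.6 CPM, close in PD and CT. GABA release genes had medians of -0.08 and -0.07, with SLC32A1, the vesicular GABA transporter, at log2 -0.71 in the putamen and -0.47 among members from 5000 UMIs up to the upper depth limit tried. Synaptic vesicle genes had medians of -0.06 and -0.07, with 1 of 34 past the fold in the putamen, CPLX1 (log2 -0.80), and 1 of 33 higher in the caudate nucleus.

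The cholesterol synthesis list stood furthest below 0 among the lists of pathway genes with 10 or more measured members. All 15 measured enzymes were lower in PUT PD than in PUT CT (59.5% of all genes were). Past the fold were 10 of them (7.88% of all genes were), with a median log2 of -0.61. In the caudate nucleus 14 of 15 were lower (67.6% of all genes were) and 5 past the fold (10.8% of all genes were), with a median of -0.53. The 17 annotated enzymes summed to 406 and 246 CPM in PUT CT and PUT PD and to 401 and 270.0 CPM in CN CT and CN PD. The direct set had medians of -0.56 over 12 measured enzymes, 4 of them past the fold, and -0.61 over 15, 9 past the fold.

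Early and late steps of the pathway were both represented. HMGCS1, which makes HMG-CoA, was 23, 11.2, 31.5 and 21.3 CPM. IDI1, the isomerase of the isoprenoid step, was 21.7, 10.9, 18.8 and 13 CPM. In both genes the CT libraries lay above the PD libraries. SQLE, the epoxidase that commits squalene to sterols, was 46, 30.2, 49.2 and 31.6 CPM, and CYP51A1, which removes a methyl group from lanosterol, 40.5, 26.6, 45.9 and 28.2 CPM. MSMO1, a methyl sterol oxidase, was 48.3, 17.5, 41.7 and 18.9 CPM, with ratios of 0.363, 0.298 to 0.441 in the putamen and 0.454, 0.375 to 0.548 in the caudate nucleus, the lowest of the list in each region. MVK, mevalonate kinase, was past the fold in the caudate nucleus (log2 -0.85) and not in the putamen (-0.36), and PMVK was the 1 enzyme above 0 there (log2 0.17). SQLE and CYP51A1 lay close to the fold, and over the alternatives they came inside it in both regions, to -0.49 and -0.42 in the putamen and -0.51 and -0.56 in the caudate nucleus, as PMVK did in the putamen (-0.45).

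**Figure D4:**
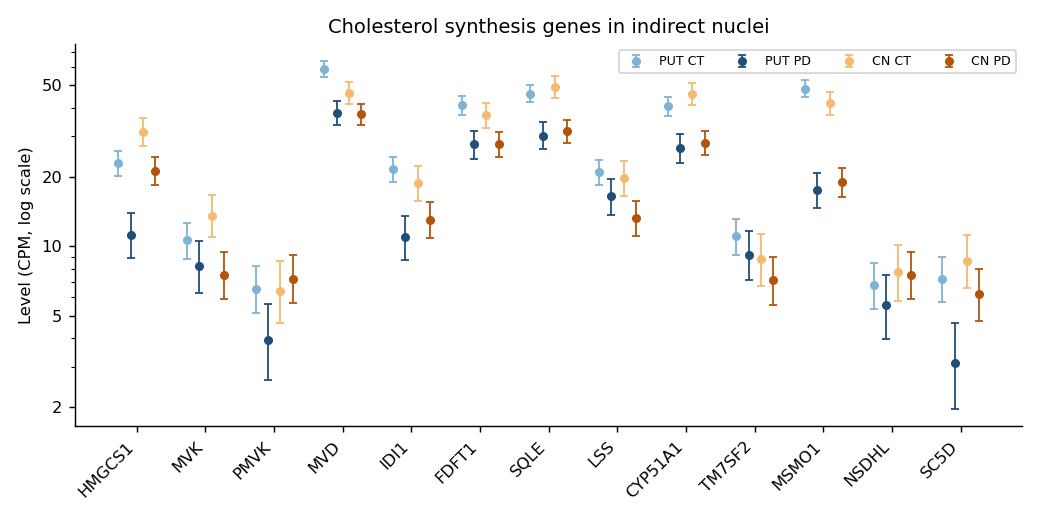
Levels (CPM, log axis) of the measured cholesterol synthesis genes that are reported singly, in the indirect nuclei and in pathway order, with 1 point per library and 95% Poisson intervals for counting error. For MSMO1 the CT points lie at 48.3 and 41.7 CPM and the PD points at 17.5 and 18.9 CPM.

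Genes that regulate or import sterols lay nearer to 0 (medians -0.10 and -0.16, with 2 of 14 past the fold in the putamen and 1 of 14 in the caudate nucleus, all lower). STARD4, a carrier of free cholesterol, was 30.6, 15.8, 37.7 and 15.5 CPM. SCD, a fatty acid desaturase, was 26, 13.9, 12.8 and 8.65 CPM. SREBF2, the master regulator of the pathway, was 129, 86.5, 114 and 99.3 CPM, at a ratio of 0.669, 0.609 to 0.735 in the putamen and 0.869, 0.79 to 0.957 in the caudate nucleus. CYP46A1, which clears cholesterol from neurons as 24S-hydroxycholesterol, was 438, 419.7, 409 and 392 CPM, close in PD and CT.

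Astrocyte RNA moved the same way as the cholesterol genes. The 6 annotated astrocyte markers summed to 158 CPM in PUT CT, 91.3 in PUT PD, 224 in CN CT and 94.5 in CN PD, all 4 measured in the putamen and all 3 measured in the caudate nucleus lay below 0, and none was at 0 UMIs in any library. The glutamate transporter SLC1A3 was 41.9, 21.2, 66.2 and 19 CPM and SLC1A2 86.9, 47.8, 127 and 57.9 CPM. When every nucleus with 1 or more astrocyte marker UMIs was left out (1213, 982, 795 and 889 nuclei remained), the cholesterol genes summed to 412 and 243 CPM in PUT CT and PUT PD and to 397 and 273 CPM in CN CT and CN PD. The medians were then -0.70 and -0.56. The other marker lists summed to 1170, 1001, 594 and 533 CPM for oligodendrocytes, 129, 111, 137 and 100.2 for their precursors, 33.7, 24.6, 23.6 and 21.3 for microglia, 12.5, 13.2, 14.2 and 11.6 for vascular cells, 209, 141, 107 and 70.6 for interneurons, whose list includes NOS1, and 8.78, 17.9, 5.67 and 5.50 for cortical glutamatergic neurons. Without the nuclei with 10 or more oligodendrocyte UMIs the cholesterol medians were -0.61 and -0.52.

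Mitochondrially encoded genes were lower in PUT PD. All 9 measured lay below 0 in the putamen (59.5% of all genes did), 6 past the fold (7.88% of all genes were; median -0.60), and all 6 measured in the caudate nucleus lay below 0 with none past the fold (median -0.13). CYTB was 28.3, 18.6, 27.4 and 25.4 CPM, a call lost under 7 of 14 alternatives, and ND6 17.8, 8.23, 13.6 and 10.9 CPM. These transcripts made up 0.0161% of UMIs in PUT CT and 0.0102% in PUT PD, and in nuclei they stem from outside the nucleus; the part of free RNA was not tested. Whether the regions differ was not tested either. Nuclear respiratory genes had medians of -0.08 and -0.30 with none of 14 past the fold.

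Protein folding genes lay below 0 in both regions (medians -0.26 and -0.27), with 4 of 17 lower in the putamen and 4 of 15 in the caudate nucleus, where 7.88% and 10.8% of all genes were. Below 0 lay 14 of 17 and 14 of 15, against 59.5% and 67.6% of all genes. ATF4, the effector of the integrated stress response, was 16.7, 8.63, 12.5 and 7.13 CPM, with -0.27 in the caudate nucleus after thinning to 2000 UMIs. HSP90AB1, a cytosolic chaperone, had a log2 ratio of -0.84 in the putamen, and HSPA8 and HSPD1 had -0.78 and -0.82 in the caudate nucleus, HSPA8 with -0.53 among members from 5000 UMIs up to the upper depth limit tried. Proteasome genes had medians of -0.05 and -0.16. Of 25 genes linked to Parkinson's disease, 0 were higher and 2 lower in the putamen, and 1 was higher and 7 lower in the caudate nucleus, with medians of -0.02 and -0.09. The putamen count is near the 7.88% of all genes that were lower there; in the caudate nucleus 10.8% of all genes were. BST1, an enzyme of NAD metabolism, was 21.2, 6.34, 23 and 7.03 CPM, PARK7, an oxidative stress sensor, 28.3, 17.7, 29.4 and 19.2 CPM, and UCHL1, a deubiquitinase, 146, 107, 192 and 113 CPM. In these 3 both CT libraries lay above both PD libraries, and PARK7 in the caudate nucleus came inside the fold under 6 of 14 alternatives.

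Since poly(ADP-ribose) was part of the model, genes of its metabolism were read as a list. Of 19 measured, 2 were higher and 1 lower in the putamen (median 0.07), and 1 higher and 1 lower in the caudate nucleus (median -0.05). XRCC1, a DNA repair scaffold that binds the polymer, was 34.3, 53.6, 28.8 and 27.8 CPM. PARP16, an enzyme of the endoplasmic reticulum, was 11.1, 17.7, 9.84 and 10.4 CPM. Over the alternatives the putamen log2 ratios of both came inside the fold, to 0.50 and 0.30. PARP9, which is induced by interferon, was 20.4, 10.9, 25.5 and 10.7 CPM, lower in both regions. Interferon and MHC class I genes were thinly counted, with 8 and 7 of 32 annotated genes measured. GBP1, an interferon-induced GTPase, was 11.7, 4.45, 13.4 and 2.95 CPM. Actin and spine genes had medians of -0.03 in both regions, and MEF2C, a transcription factor that restrains spine number, was lower in both at 179, 104, 215 and 100.5 CPM. Axon guidance genes had medians of -0.07 and 0.02, with 1 of 30 higher and 3 lower in the putamen, among them EPHA3 (log2 -0.84), and 1 of 29 lower in the caudate nucleus. The 4 measured markers of eccentric spiny neurons had medians of -0.07 and -0.18, with 2 above and 2 below 0 in each region. None was past the fold in the putamen and 1 was in the caudate nucleus. This was OTOF, a calcium sensor of vesicle release, at 101, 78.7, 35.8 and 13.1 CPM.

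The PD to CT ratios of the indirect nuclei were then set against those of the direct set, gene by gene, in both regions. This ranking was added after the values had been seen, and its normal-approximation intervals cover counting error only. FHOD3, a formin that builds actin filaments, was 12.7, 31.2, 25.3 and 106 CPM in the indirect nuclei and 14.9, 13.3, 60.4 and 149 CPM in the direct set. Its log2 ratio was above that of the direct set by 1.46 (0.95 to 1.96) in the putamen and 0.75 (0.48 to 1.02) in the caudate nucleus. OCA2, a melanosome membrane protein, was 26.4, 99.2, 49.8 and 139 CPM, above the direct set by 0.89 (0.49 to 1.29) and 0.58 (0.29 to 0.87). PCSK1 was above it by 0.89 (0.23 to 1.54) and 0.63 (0.18 to 1.07), and HS3ST4, which modifies heparan sulfate, by 0.31 (0.21 to 0.41) and 0.42 (0.34 to 0.50). UNC13C, GPC6, GALNTL6 and PTPRR completed the 8 in that direction. So FHOD3 and OCA2 were higher in the PD indirect nuclei of both regions, with smaller or no excess in the direct set.

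In the other direction, ZNF804B was 13, 5.13, 41.9 and 27.8 CPM, and its log2 ratio differed from the direct set by -1.27 (-1.99 to -0.55) and -1.20 (-1.51 to -0.88). NXPH1, a secreted ligand of neurexins, was 34.3, 17.9, 73.4 and 55.4 CPM, with differences of -0.94 (-1.43 to -0.46) and -0.94 (-1.20 to -0.68). PTPRZ1, a receptor phosphatase abundant in glia, differed by -0.60 (-0.94 to -0.26) and -0.55 (-0.79 to -0.31). Without nuclei that held astrocyte marker UMIs, the PD to CT log2 ratios in the indirect nuclei were -0.17 for NXPH1 and -0.40 for PTPRZ1 in the putamen and -0.20 for ZNF804B in the caudate nucleus, against -0.93, -0.93 and -0.59 with them. DPP10, an auxiliary subunit of potassium channels, was higher in PD in both types, at 241, 606, 553 and 957 CPM in the indirect nuclei and 60.5, 277, 334 and 695 CPM in the direct set. KCNC2, a fast potassium channel, was likewise higher in both types, and less so in the indirect nuclei. PARP8, DSCAM and TCF4 completed these 8.

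Indirect nuclei were also compared between the caudate nucleus and the putamen. Of 9848 genes, 229 (2.33%) were 1.5-fold or more higher in the caudate nucleus in both CT and PD, and 282 (2.86%) were lower; the regional genes named here were ranked after the values had been seen. HTR2C, a serotonin receptor, was 13.6, 0.944, 373 and 338 CPM. EYA4, a transcriptional coactivator, was 6.96, 1.21, 78.9 and 65.6 CPM. GDA, a guanine deaminase and matrix marker, was 6.61, 5.8, 65.6 and 65.9 CPM, and SEMA3E, a secreted guidance cue, 21, 24.4, 173 and 238 CPM. AK5, GULP1, TLL1 and RGS6 were also higher in both caudate libraries. TESPA1 was 87.1, 91.9, 3.28 and 3.56 CPM and SNTG2, a syntrophin, 1003, 1078, 135 and 123 CPM. GLI3, a transcription factor of hedgehog signalling, was 66.5, 53.3, 8.65 and 4.48 CPM, and COL25A1, a membrane collagen, 306, 299, 82.2 and 88.2 CPM. KCNK13, ADGRG7, SOHLH1 and WNT16 were likewise higher in the putamen.

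Some of the caudate genes were low in PUT PD. HTR2C was among the 5 lowest genes of the putamen comparison, at 13.6 CPM in PUT CT and 0.944 CPM in PUT PD (ratio 0.0696, 0.0275 to 0.147), with little difference in the caudate nucleus (ratio 0.907, 0.861 to 0.955). Of the 8 genes named as higher in the caudate nucleus, 5 were 1.5-fold or more lower in PUT PD than in PUT CT (7.88% of all genes were), with log2 ratios of -2.45 for EYA4, -0.97 for GULP1, -0.90 for RGS6 and -0.68 for TLL1. The log2 ratios were -0.18 for GDA, 0.01 for AK5 and 0.22 for SEMA3E. The PUT PD level entered the ranking of these 8 genes, so the count is a description. None of the 8 was lower by the fold in CN PD, and of the 8 genes named as higher in the putamen 1 was lower in PUT PD and 2 in CN PD. Whether the 2 putamen libraries held different shares of caudate-like nuclei was not tested.

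**Figure D5:**
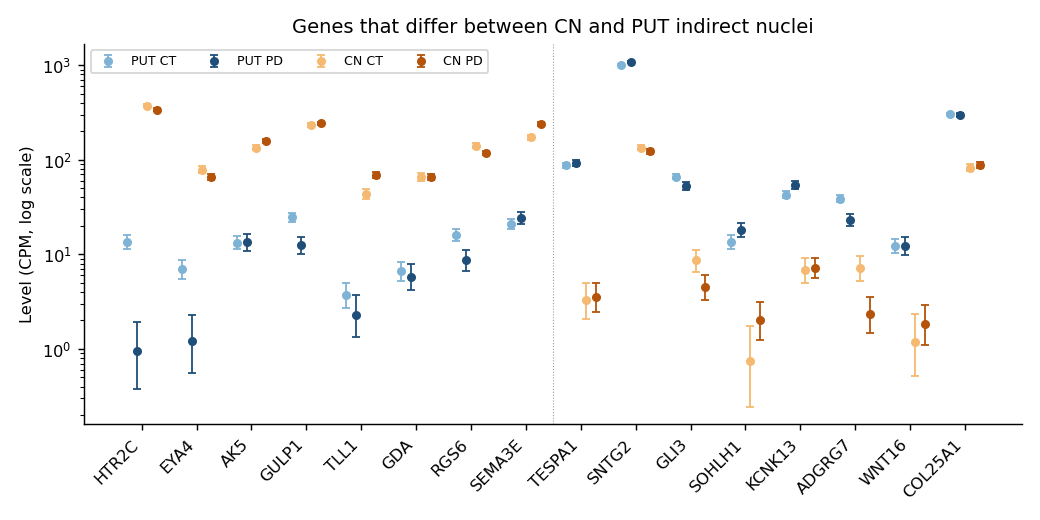
Levels (CPM, log axis) of the 8 genes per direction that separate the caudate nucleus from the putamen most in the indirect nuclei of both groups, with 1 point per library and 95% Poisson intervals for counting error. HTR2C lies at 373 and 338 CPM in the caudate nucleus and at 13.6 and 0.944 CPM in the putamen.

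Patch and matrix compartments of the striatum were looked for within the indirect nuclei. Of the matrix markers CDH10, a cadherin, was 9.56, 15.5, 65.6 and 133 CPM, higher in PD in both regions (inside the fold in the putamen, at 0.54, with 4 or more DRD2 and ADORA2A UMIs), while the others stayed within the fold, among them EPHA4 (log2 0.23 and -0.02) and CALB1 (-0.46 and -0.17). Of the patch markers none was past the fold, with BACH2 at log2 0.44 and 0.55. After thinning to 2000 UMIs, 91, 69, 41 and 65 indirect nuclei held the patch gene KREMEN1. With all UMIs, 272, 176, 115 and 194 held it, and the level of the patch marker BACH2 in them, relative to the other indirect nuclei, had ratios of 0.918 (0.657 to 1.26), 1.49 (1.08 to 2.03), 1.56 (1.06 to 2.25) and 1.06 (0.829 to 1.34). KCNIP1, another patch marker, had ratios of 0.877 (0.736 to 1.04), 1.40 (1.14 to 1.71), 1.24 (1.04 to 1.47) and 1.12 (0.985 to 1.26). OPRM1, a classic patch receptor, had ratios of 0.947, 0.948, 0.806 and 0.842, and the matrix marker EPHA4 1.04, 1.04, 1.07 and 1.04. After thinning the ratios were 0.222, 2.30, 2.01 and 1.04 for BACH2, 1.27, 0.936, 1.32 and 1.16 for KCNIP1, 1.09, 0.508, 0.885 and 0.724 for OPRM1 and 1.06, 1.0, 1.01 and 0.955 for EPHA4. The split had been planned on thinned nuclei, where BACH2 had 1, 10, 5 and 7 UMIs in the KREMEN1 nuclei. Of these thinned ratios, BACH2 lay above 1 with its interval in PUT PD (1.07 to 4.46). OPRM1 lay below 1 with its interval in PUT PD (0.242 to 0.945). The other intervals for these genes held 1. With all UMIs, BACH2 and KCNIP1 were above 1 with their intervals in PUT PD and CN CT. OPRM1 lay below 1 with its interval in CN CT (0.669 to 0.964) and CN PD (0.753 to 0.940) with all UMIs. The matrix marker CDH10 had ratios of 0.538, 2.52 (1.64 to 3.79), 0.869 and 0.888 with all UMIs, so it too was above 1 in PUT PD. After thinning CDH10 was at 1.05 (0.122 to 4.08) in PUT PD. Below 1 with their intervals, with all UMIs, were the matrix markers SV2B in CN CT (0.680, 0.453 to 0.987) and RASGRP2 in CN PD (0.784, 0.620 to 0.982).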

How the data were processed

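Nuclei of the putamen and caudate nucleus were analysed from the count matrices deposited by the authors, which hold whole UMI counts per gene and barcode. Per the submitters' processing notes they were made with Cell Ranger 7.0.1 and named hg38, while the gene identifiers in the files are those of Macaca fascicularis; the annotation release is not given in the sources used here. The extract protocol names a different macaque species from the organism field.

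Counts of the members were summed per library and scaled to CPM. Log2 ratios were computed with 0.5 UMI added, over genes with 100 or more UMIs in both libraries together, with exact conditional binomial intervals for ratios and exact Poisson intervals for levels. With 1 library per group no test was run. The computations used Python 3.11.15, numpy 2.4.6, scipy 1.17.1, pandas 2.3.3, matplotlib 3.10.9, R 4.3.3 and edgeR 4.0.16 (for TMM scaling), and were tested on simulated data. Doublets were not removed; Scrublet in scanpy 1.11.5 was an alternative.

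The genes named were the 5 highest and 5 lowest per region and the 8 per direction over both regions, each ranked by how far the nearer end of its interval lay from a ratio of 1, the 10 per direction between indirect and direct nuclei, and up to 4 per list. Other genes were named for their role after their values had been seen. The members and lists were chosen with earlier results of these data known. The direct set was to be defined with DRD1, which had too few counts, and was redefined as given in the report. Some genes that the lists and their sums include are not reported singly here.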

Additional observations from a re-analysis of the deposited data

Results flagged for a closer look

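In the substantia nigra, which the comparisons did not use, 11 of 1824 barcodes with 2000 or more UMIs met the thresholds in the PD library (0.603%) and 1 of 2335 in the CT library (0.0428%). They were noted because barcodes that meet the thresholds appear outside the striatum, and more often in the PD than in the control library. Their cell type was not checked with the indirect markers that the thresholds did not use. The 11 barcodes had a median of 7262 UMIs and 0.615% mitochondrial UMIs, against 0.0102% to 0.0161% in the striatal members. The direct set thresholds were met by 11 barcodes in the PD library and 0 in the CT library, so the count is not particular to the indirect type. The difference was not tested, since each group is 1 library, and its source was not tested.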

How the results depend on the processing

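No paired analysis was possible because the matrices carry no map from barcodes to samples; leaving out a replicate was not possible for the same reason. Of 146 gene and region pairs past the fold, none changed sign and 52 came inside the fold under 1 or more of the alternatives run. Of the pairs inside the fold 4 turned sign past it: EBF1 in the putamen without members with direct genes (1.34), and after thinning SEMA5B in the putamen (0.75) and CFL2 (0.64) and EYA1 (0.65) in the caudate nucleus. Of the values that answer a comparison, 150 stayed close to the value reported and 24 moved. Of single genes and other values 12689 stayed and 926 moved. The alternative that left out members with 2 or more DRD1 UMIs removed no nuclei. Its values therefore could not move, yet they count among those that stayed, and it is 1 of the 14 alternatives for single genes. A value could also stay close and change sign. The caudate median of mitochondrially encoded genes went from -0.13 to 0.05 with 4 or more DRD2 and ADORA2A UMIs. In the caudate nucleus the lower genes numbered 664 with 4 or more DRD2 and ADORA2A UMIs, 671 with TMM scaling and 644 with median centring, which gave 406 higher. Higher and lower genes numbered 2684 and 3464 in the putamen and 2127 and 3958 in the caudate nucleus with no minimum count, 84 and 196, and 79 and 235 with a minimum of 500 UMIs, and 221 and 509, and 167 and 527 after thinning to 2000 UMIs. These 3 settings change how many genes are measured or how many UMIs are counted. PENK had log2 ratios of -0.86 and 0.14 after that thinning. The caudate share ratio was 1.79 with 4 or more DRD2 and ADORA2A UMIs, 1.70 with 20 or more PDE10A UMIs, 1.06 with a minimum of 5000 UMIs and 1.01 thinned to 5000, and of indirect and direct nuclei 1.53 with 4 or more DRD2 and ADORA2A UMIs; the putamen share ratio was 1.06 thinned. The cholesterol medians ranged from -0.70 to -0.55 in the putamen and from -0.61 to -0.39 in the caudate nucleus. Alternatives chosen after seeing the data were the redefined direct set and leaving out nuclei with direct-gene UMIs, with barcodes shared between libraries, or with astrocyte UMIs. Depth limits single nuclei: genes with few UMIs are readable only as sums.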
